A study of Mus musculus with 7 samples.

Results

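The 32 cardiac muscle genes described here were followed through messenger RNA sequencing of mouse fetal liver, out of 38924 genes counted in each library. They comprise 19 genes of the contractile apparatus, 2 natriuretic peptide hormones, 7 genes of calcium handling and membrane coupling, and 4 cardiac transcription factors. All 32 were found by symbol, and 30 had enough reads to enter the fit across all genes. The genes were chosen by their role in heart muscle after the measured knockout against wild type change of some of them, Myh6 and Nppa among these, was known, so their knockout against wild type fold changes, and the calls of the fit across all genes, describe the members and support nothing. Fetal livers taken 12.5 days post coitum gave 7 libraries. Wild type gave 4 and the Pcbp2 knockout 3, which lacks a poly(C)-binding RNA protein. The labels give no allele, strain, sex, litter or dissection note, and do not say that each library came from a separate embryo. The question for these genes was whether they keep the same proportions to each other in every library, as a fixed mix of heart muscle cells would give.

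Heart muscle shortens when myosin heads pull on actin filaments inside the sarcomere, and troponin lets them do so when calcium is released from internal stores. Atrial and ventricular muscle use different myosin chains, and the embryonic atria are rich in Myh6, Myl7, Myl4 and atrial natriuretic peptide, while Myl2 and Myh7 mark the ventricles. In the embryo the liver lies directly beneath the heart, separated from it by the septum transversum, from which mesenchymal cells of the liver also arise. Several of these genes are not restricted to heart: Actc1, Ttn, Actn2, Tnnc1, Smyd1 and Myh7 are also used by embryonic skeletal muscle, Atp2a2 by most cells, Hand2 and Tbx5 by other mesenchyme, and Nkx2-5 by mesenchyme of the stomach and spleen.

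Promoters are printed for 4 members that stand for the extremes of the data described below. Myh6 and Nppa were low in wild type and had nearly the same ratio between knockout replicates 3 and 5. Actc1 and Myl7 were well covered in every wild-type library. The sequences come from RefSeq on build GRCm38.p6, run 5′ to 3′ on the gene's strand from 250 bases before to 50 bases after the start, and capitals mark every motif found among those searched.
Myh6, chr14:54966558-54966857, minus strand: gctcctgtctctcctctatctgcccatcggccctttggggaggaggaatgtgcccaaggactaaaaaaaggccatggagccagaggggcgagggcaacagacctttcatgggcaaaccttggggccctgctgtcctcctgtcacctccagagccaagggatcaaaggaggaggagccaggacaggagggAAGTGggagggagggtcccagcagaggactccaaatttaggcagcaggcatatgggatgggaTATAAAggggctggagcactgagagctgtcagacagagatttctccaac
Nppa, chr4:148000472-148000771, plus strand: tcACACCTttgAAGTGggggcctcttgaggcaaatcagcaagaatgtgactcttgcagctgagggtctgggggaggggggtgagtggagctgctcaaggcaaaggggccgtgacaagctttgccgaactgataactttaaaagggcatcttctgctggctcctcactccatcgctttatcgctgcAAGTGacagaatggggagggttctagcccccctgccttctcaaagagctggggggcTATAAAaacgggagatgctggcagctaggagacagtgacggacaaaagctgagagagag
Actc1, chr2:114052826-114053125, minus strand: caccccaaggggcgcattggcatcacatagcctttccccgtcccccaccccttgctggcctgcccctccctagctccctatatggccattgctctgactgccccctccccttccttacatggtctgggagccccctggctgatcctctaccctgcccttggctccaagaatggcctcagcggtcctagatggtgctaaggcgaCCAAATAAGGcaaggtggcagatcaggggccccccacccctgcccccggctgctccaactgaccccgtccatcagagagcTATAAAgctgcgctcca
Myl7, chr11:5898733-5899032, minus strand: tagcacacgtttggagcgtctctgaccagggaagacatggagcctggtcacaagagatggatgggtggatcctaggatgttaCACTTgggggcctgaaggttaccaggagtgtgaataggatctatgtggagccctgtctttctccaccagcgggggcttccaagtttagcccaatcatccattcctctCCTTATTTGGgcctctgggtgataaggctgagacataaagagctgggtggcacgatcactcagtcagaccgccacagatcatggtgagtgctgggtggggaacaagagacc
The motifs, searched on both strands, were the following. AGATAA is read by zinc finger factors of the heart and blood, and AGGTGT by T-box factors. AAGTG is the core read by Nkx2-5. The MEF2 motif and the CArG box of serum response factor were searched by their consensus, and TATAAA is the core promoter element. Matches that overlap were all kept, and the MEF2 motif can overlap TATAAA. In Nppa the capitals mark AGGTGT read on the other strand, AAGTG in 2 places and TATAAA. In Myh6 they mark AAGTG and TATAAA. The promoter of Actc1 holds a CArG box and TATAAA, and that of Myl7 holds AAGTG read on the other strand and a CArG box. RefSeq promoters matched 29 of the 32 members by symbol, with 37 promoters between them. A CArG box was present in 6 of these 37, or 16.2%, against 1.63% of all 32851 promoters of the same length, and the members holding it were Actc1, Ldb3, Myl3, Myl7 and Nebl. AGATAA was present in 24.3% against 11.2%, the MEF2 motif in 8.11% against 3.19%, AGGTGT in 10.8% against 13.7%, AAGTG in 43.2% against 46.4% and TATAAA in 18.9% against 13.6%. A match describes the letters only, and no binding was measured.

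Reads assigned to genes numbered from 31898339 to 44544889 per library, and the upper limit behind a count of 0, taken as 3 reads, was 0.0662 to 0.102 CPM (reads of a gene scaled to a common library size, after TMM). These limits and the intervals below cover counting error only. The knockout libraries carried 0.662% of the wild-type mean of Pcbp2, which fits their labels. Within wild type Pcbp2 was uneven, at 165 CPM in replicate 1 against 329, 347 and 338 CPM in replicates 2 to 4. The reason for the lower level in wild type replicate 1 was not tested. Markers of hepatoblasts, the liver's own epithelial precursors, summed to between 6059 and 12642 CPM in wild type and between 7528 and 9538 CPM in knockout, so all 7 libraries carried the transcripts of liver. In bulk tissue, fewer cells of a type and less RNA per cell cannot be told apart.

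Among the members, 8 of the 30 tested were higher in knockout at an adjusted p under 0.05 and 0 were lower, by edgeR's quasi-likelihood test with Benjamini-Hochberg adjustment, which called 1.59% of all 16226 tested genes higher and 3.43% lower. The 8 were Myh6, Mybpc3, Myl3, Tnni3, Csrp3, Nebl, Ankrd1 and Nppa. Another 8 had an unadjusted p under 0.05, 16 in all. The share of all tested genes at that unadjusted threshold was not counted, here or below, so nothing is read from such counts. The median log2 fold change over the 30 was 0.97, against 0.01 over all tested genes. Every knockout library lay above every wild-type library for 8 of the 32, where 9.83% of tested genes did so, and these were Myh6, Mybpc3, Myl3, Tnni3, Nebl, Ankrd1, Nppa and Gja5. Because the members were chosen with this contrast known, nothing is read from these counts. Leaving out wild type replicate 1 or wild type replicate 3 left 5 called, and leaving out knockout replicate 5 left 4. Over all genes these fits called 148, 79 and 24 higher, in that order, against 258 in the main fit. The call was made for 3 members by limma-voom, 13 when low counts were not filtered, 15 when the replicate number was a block and 0 with a filter of 5 CPM in 3 libraries, which kept 16 members. Over all genes these settings called 235, 333, 852 and 212 higher, in that order. With the block, only replicate numbers 3 and 4, present in both groups, bear on the fitted change. The spread in that fit also rests on those replicate numbers only, so its counts are not directly comparable with the others. Without knockout replicate 3, the library in which most members were highest, 6 were called higher, among them Myh6, Mybpc3, Nebl, Ankrd1 and Nppa, and 1 lower, Tbx20. Over all genes that fit called 246 higher and 482 lower. The libraries differed from each other by more than sampling noise, and as nothing says they came from separate embryos, these tests measure only the spread between libraries.

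**Figure D1:**
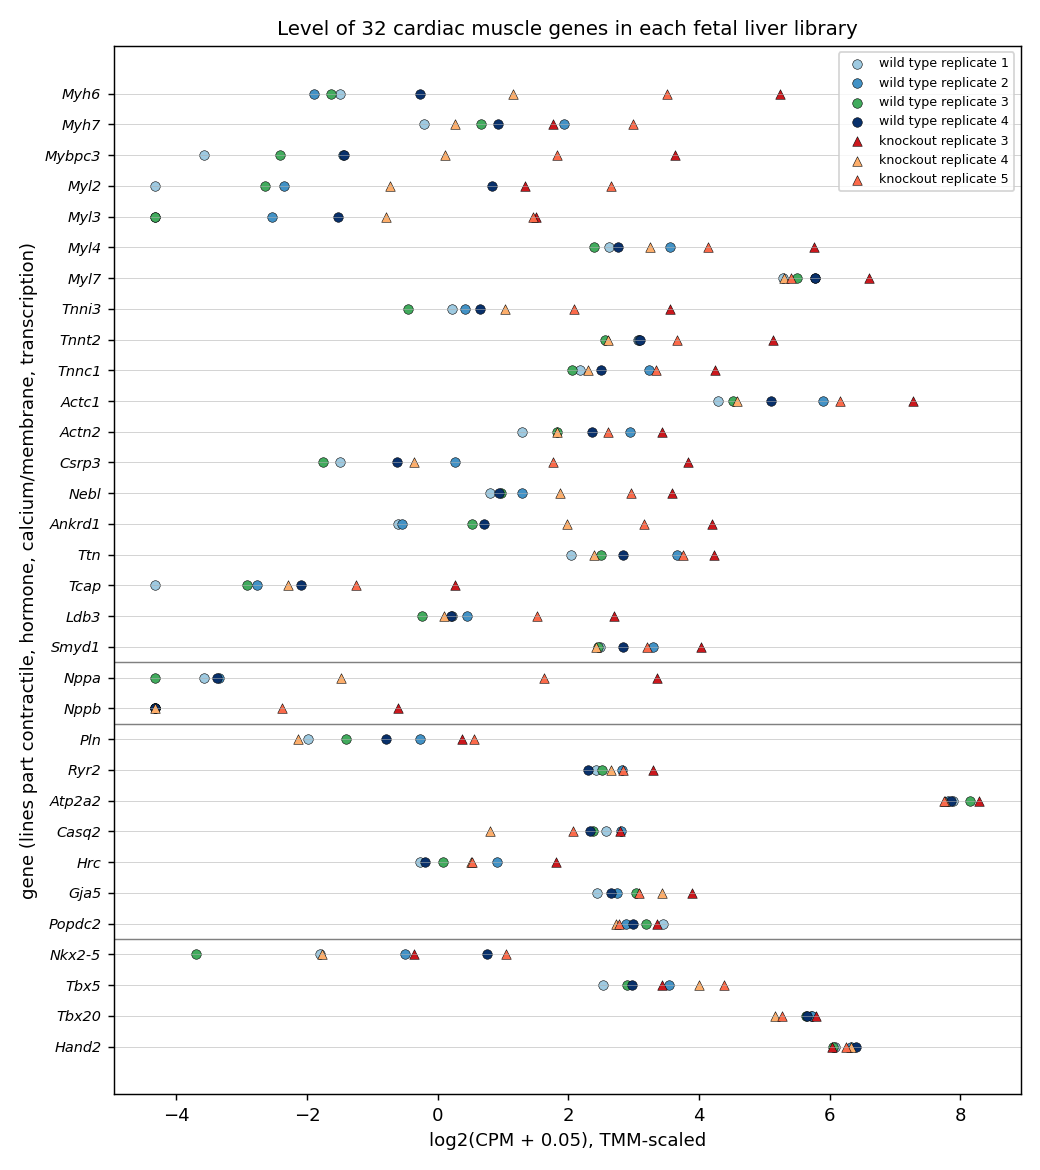
Level of each of the 32 genes in each library as log2(CPM + 0.05), wild type as circles and knockout as triangles, with lines parting the contractile, hormone, calcium and membrane, and transcription genes. Knockout replicate 3 is rightmost for most contractile genes and for both hormones, while the transcription genes Tbx20 and Hand2 stay between 35.7 and 85.1 CPM in all 7 libraries.

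The myosin heavy chains, the motor proteins of the sarcomere, did not move together. Myh6 (ENSMUSG00000040752; chromosome 14, 54941921 to 54966927, build mm10), the alpha chain, had 0.305, 0.220, 0.274 and 0.782 CPM in wild type replicates 1 to 4 and 37.9, 2.18 and 11.4 CPM in knockout replicates 3, 4 and 5. Every knockout library stood above every wild-type library, but the knockout libraries differed 17.3-fold among themselves. Its log2 fold change was 5.39 ± 0.85 (SE, 4 and 3 libraries), and 4.06 without knockout replicate 3. Myh7, the beta chain encoded just upstream on the same chromosome, had 0.812, 3.76, 1.53 and 1.84 CPM in wild type and 3.36, 1.15 and 7.87 CPM in knockout replicates 3, 4 and 5. Its groups overlapped, and it was highest in knockout replicate 5, not 3. The fitted log2 fold change of Myh7 was 1.03 ± 0.60. Of the reads of both genes, Myh6 took 91.9% in knockout replicate 3 (exact 95% interval 90.3 to 93.3%), 65.6% in replicate 4 (57.4 to 73.1%) and 59.2% in replicate 5 (55.4 to 62.9%). In wild type that share ran from 5.52% to 29.8%. The proportion between the 2 chains was therefore different in knockout replicate 3 from that in replicates 4 and 5, beyond counting error. The sequences of both genes are close, so reads in shared stretches could have been left out or assigned uncertainly. The exons of Myh7 also share 484 bases with Mhrt and 523 with Gm31251, both on the opposite strand, those of Myh6 share 114 with Gm49130, and no source used here states whether counting used strand.

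The myosin light chains, which bind the neck of the motor, split in the same way. Myl7, the atrial regulatory chain, was well covered in every library, at 39.2, 54.7, 45.3 and 54.5 CPM in wild type and 97.7, 39.4 and 42.5 CPM in knockout replicates 3, 4 and 5. Knockout replicates 4 and 5 lay within the wild-type range, and replicate 3 alone was above it. Per kilobase of exon, Myl7 had the highest level of all members in wild type, at 82.1 ± 12.8 CPM per kilobase (SD, n = 4), above Atp2a2 at 40.1, Hand2 at 31.9 and Actc1 at 21.1 CPM per kilobase. Myl2, its ventricular counterpart, had 0, 0.146, 0.109 and 1.72 CPM in wild type and 2.48, 0.551 and 6.27 CPM in knockout replicates 3, 4 and 5. Wild type replicate 4 therefore stood above knockout replicate 4 for Myl2. The fitted log2 fold change of Myl2 was 2.56 ± 1.04, and 5.02 without wild type replicate 4. Myl4, an atrial and embryonic essential chain, had 5.20 to 11.8 CPM in wild type and 54.0, 9.44 and 17.6 CPM in knockout, with replicate 4 inside the wild-type range. Myl3, the ventricular essential chain, had at most 0.299 CPM in wild type and 2.78, 0.529 and 2.71 CPM in knockout, so that replicates 3 and 5 were level for this gene.

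The troponins, the calcium switch on the thin filament, differed in how much wild type carried. Tnni3, cardiac troponin I, had 0.684 to 1.52 CPM in wild type and 11.7, 1.98 and 4.19 CPM in knockout replicates 3, 4 and 5, a log2 fold change of 2.35 ± 0.52. Tnnt2, cardiac troponin T, had 5.83 to 8.53 CPM in wild type and 35.0, 6.02 and 12.7 CPM in knockout, and Tnnc1, troponin C of heart and slow muscle, 4.13 to 9.42 CPM and then 19.01, 4.87 and 10.1 CPM. For Tnnt2 and Tnnc1 knockout replicate 4 lay within the wild-type range.

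Among the thin filament and Z-disc genes, Actc1, cardiac alpha-actin, had 19.5, 59.8, 23.0 and 34.2 CPM in wild type and 156, 24.0 and 71.7 CPM in knockout replicates 3, 4 and 5. Its highest wild-type library was replicate 2, and its fitted log2 fold change was 1.29 ± 0.53. Csrp3, a muscle LIM protein of the Z-disc, had 0.305, 1.15, 0.246 and 0.598 CPM in wild type and 14.1, 0.728 and 3.36 CPM in knockout. Knockout replicate 4 was again inside the wild-type range, and the log2 fold change of 3.36 ± 0.83 was 1.79 without knockout replicate 3. Ankrd1, a stress-responsive ankyrin repeat protein, had 0.609, 0.634, 1.395 and 1.59 CPM in wild type and 18.3, 3.90 and 8.92 CPM in knockout (log2 3.27 ± 0.50). Nebl, a Z-disc nebulette, had 1.69, 2.39, 1.92 and 1.86 CPM in wild type and 12.001, 3.62 and 7.75 CPM in knockout (log2 1.98 ± 0.34). Both lay above wild type in all 3 knockout libraries, including replicate 4. Mybpc3, a thick-filament binding protein, had at most 0.322 CPM in wild type and 12.3, 1.04 and 3.51 CPM in knockout. Actn2, an actin crosslinker, the spring protein gene Ttn, and Smyd1, a methyltransferase of myofibril assembly, had fitted log2 fold changes of 0.52 ± 0.42, 0.75 ± 0.43 and 0.55 ± 0.34, with overlapping groups. Ldb3, a Z-disc PDZ protein, had 0.793 to 1.32 CPM in wild type and 6.47, 1.01 and 2.82 CPM in knockout. Tcap, the titin cap, was not tested and had 0, 4, 3 and 8 reads in wild type replicates 1 to 4 and 38, 7 and 13 reads in knockout replicates 3, 4 and 5.

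The hormones were the members nearest to 0 in wild type. Nppa, atrial natriuretic peptide, had 1, 2, 0 and 2 reads in wild type replicates 1 to 4 and 336, 14 and 107 reads in knockout replicates 3, 4 and 5. In CPM this was at most 0.0488 in wild type, against 10.2, 0.309 and 3.05. All 4 wild-type counts are at or under the floor of 3 reads, so the fitted log2 fold change of 6.94 ± 1.15 depends on how the fit treats them and is no bound. Its exons share 532 bases with a gene on the opposite strand, so the limit on strand given for Myh7 holds here too. Nppb, the ventricular natriuretic peptide, lies next to Nppa on chromosome 4 and had 0 reads in all 4 wild-type libraries and in knockout replicate 4, 20 in knockout replicate 3 and 5 in replicate 5. Against the highest floor of a wild-type library, 0.102 CPM, knockout replicate 3 was at least 5.95-fold higher for Nppb.

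The calcium and membrane genes differed in how even they were across libraries. Atp2a2, the pump that returns calcium to the store, had 237, 225, 283 and 233 CPM in wild type and 313, 219 and 216 CPM in knockout, and the log2 fold change was 0.03 ± 0.15. Ryr2, the calcium release channel, had 4.87 to 7.05 CPM in wild type and 9.82, 6.22 and 7.13 CPM in knockout. Casq2, which stores calcium near that channel, had 4.97 to 6.93 CPM in wild type and 6.89, 1.70 and 4.13 CPM in knockout, so its 2 lowest libraries were knockout. Pln, the small inhibitor of the pump, had at most 0.781 CPM in wild type and 1.24, 0.176 and 1.43 CPM in knockout, with its lowest value of all 7 libraries in knockout replicate 4. Its exons share 1644 bases with Gm47644 on the opposite strand, so the limit on strand applies to it as well. Hrc, a calcium-binding protein of the store, had 3.45 CPM in knockout replicate 3 and 1.37 and 1.397 CPM in replicates 4 and 5, while wild type ran from 0.778 to 1.83 CPM. Gja5, connexin 40 of atrial and arterial junctions, was the member of this group with separate ranges, 5.38 to 8.13 CPM in wild type and 14.8, 10.7 and 8.38 CPM in knockout (log2 0.77 ± 0.21). Gja5 ordered the knockout libraries differently from Myh6, with replicate 4 above replicate 5. Popdc2, a membrane protein of cardiac and skeletal muscle, had 7.37 to 10.8 CPM in wild type and 10.2, 6.59 and 6.81 CPM in knockout.

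The transcription factors differed among themselves. Tbx20 had 52.7, 53.2, 49.8 and 50.2 CPM in wild type and 55.6, 35.7 and 38.5 CPM in knockout replicates 3, 4 and 5, the same order of knockout libraries as Myh6 over a narrower range. Hand2 had 66.6 to 85.1 CPM in wild type and 65.6 to 80.0 CPM in knockout, and the log2 fold change was -0.02 ± 0.12, or 0.10 with total-count scaling. Tbx5 was highest in knockout replicates 5 and 4, at 20.9 and 16.0 CPM, against 10.8 CPM in knockout replicate 3 and 5.75 to 11.6 CPM in wild type. That order is the reverse of Myh6 between replicates 3 and 4. Nkx2-5, the early cardiac homeobox gene, had 0.237, 0.659, 0.0274 and 1.63 CPM in wild type and 0.726, 0.243 and 2.02 CPM in knockout replicates 3, 4 and 5. Its 2 highest libraries, knockout replicate 5 and wild type replicate 4, were also the highest knockout and the highest wild-type library for Myl2.

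The 3 knockout libraries were then compared gene by gene, which does not use the wild type. Knockout replicate 3 stood above replicate 5 and replicate 5 above replicate 4 for 24 of the 32 members, an order that 25.8% of all tested genes showed. It held for 17 of 19 contractile genes, both hormones, 4 of 7 calcium and membrane genes and 1 of 4 transcription factors. Knockout replicate 5 was the highest knockout library for 5 members, where 21.7% of tested genes had it highest. Knockout replicate 3 was at least 2-fold above replicate 5 for 14 members, where 1.95% of tested genes were, and at least 2-fold above replicate 4 for 25 members, where 2.85% were. Knockout replicate 5 was at least 2-fold above replicate 4 for 20 members, where 2.08% of tested genes were. The order was known beforehand for Myh6 and Nppa, and each value compares libraries, not conditions. Tcap and Nppb, counted among the members here, were not among the tested genes.

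The size of the step, before any wild-type level was taken off, differed between members by more than counting error. The ratio of knockout replicate 3 to replicate 5 was 3.32 for Myh6 (exact 95% interval 2.97 to 3.73), 3.33 for Nppa (2.67 to 4.18), 3.51 for Mybpc3 (2.86 to 4.33) and 3.06 for Myl4 (2.79 to 3.36). It was 2.17 for Actc1 (2.07 to 2.28), 1.55 for Nebl (1.32 to 1.81) and 1.03 for Myl3 (0.763 to 1.38). It was 0.427 for Myh7 (0.339 to 0.533), 0.395 for Myl2 (0.303 to 0.512) and 0.358 for Nkx2-5 (0.216 to 0.577), so these genes went the other way. Over the members the interval lay above 1 for 25, below 1 for 5, namely Myh7, Myl2, Nkx2-5, Tbx5 and Hand2, and held 1 for Myl3 and Pln. The interval overlapped that of Myh6 for 9 of the other 31 members, and for 5 of these, Mybpc3, Csrp3, Tcap, Nppa and Nppb, the interval of the ratio of replicate 3 to replicate 4 did too. Intervals were not counted over all tested genes, so nothing is read from these numbers of members. For replicate 3 over 5, tested genes with at least 10 reads in knockout replicate 3 ran from 0.553 to 1.86 (central 95%). The ratio of knockout replicate 3 to replicate 4 was 17.3 for Myh6 (14.1 to 21.5), 32.9 for Nppa (19.3 to 60.8), 5.72 for Myl4 (5.14 to 6.37) and 1.43 for Atp2a2 (1.39 to 1.47). The median over the members was 1.78 for replicate 3 over 5 and 3.90 for replicate 3 over 4, against 1.01 and 1.0 over all genes. Taking off the wild-type mean, for the members that stayed above 0 in both libraries, moved these medians to 3.30 (26 members) and 12.7 (15 members). With it taken off, the ratio of replicate 3 to replicate 5 was 3.24 for Actc1, 3.15 for Tnnc1, 3.10 for Ldb3 and 3.48 for Tnni3, close to 3.41 for Myh6 and 3.35 for Nppa, so the gap between Actc1 and Myh6 in the unadjusted ratios was not seen. The same ratio was higher for Tnnt2 at 5.54, Csrp3 at 4.87, Actn2 at 4.51, Smyd1 at 4.18 and Hrc at 8.20. For Myl4, near Myh6 before, it was 4.56. It was lower for Ankrd1 at 2.19 and Ttn at 1.86, and still 1.73 for Nebl, 1.03 for Myl3, 0.34 for Myl2 and 0.23 for Myh7. These ratios carry the spread of the wild-type level as well and have no interval. In knockout replicate 4 the level less the wild-type mean was 1.79 CPM for Myh6 but -10.2 CPM for Actc1, whose wild-type SD was 18.2 CPM.

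**Figure D2:**
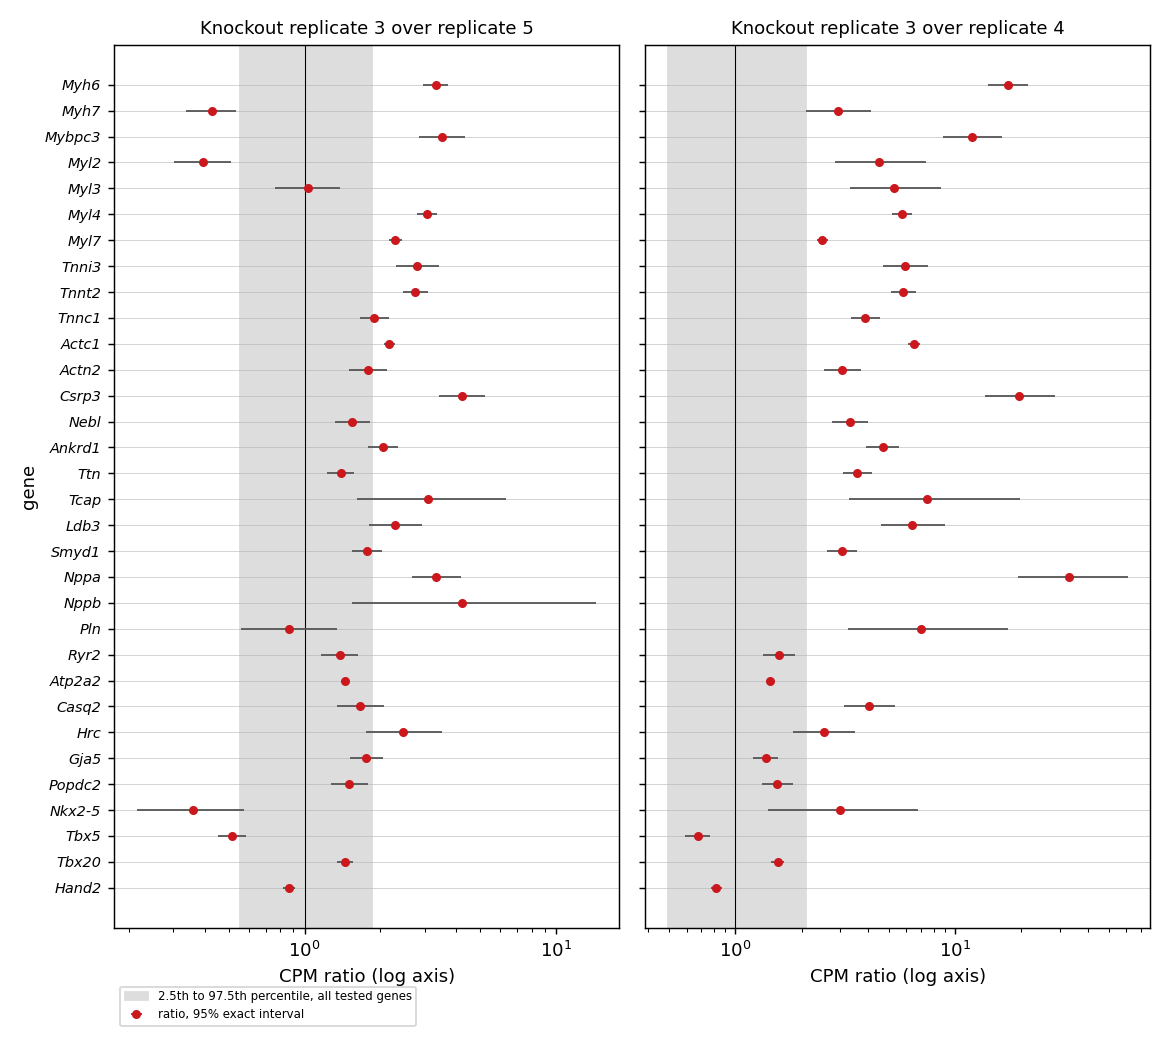
Ratio of CPM between knockout libraries for each gene on a log axis, with exact 95% intervals for counting error, and a grey band for the central 95% of all tested genes with at least 10 reads in knockout replicate 3. Myh6, Mybpc3, Csrp3 and Nppa lie far to the right in both panels, while Myh7, Myl2 and Nkx2-5 lie left of 1 for replicate 3 over 5; Nppb has no point for replicate 3 over 4 because replicate 4 had 0 reads.

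The mix of the scarce members shows the same split. The 10 members with a wild-type mean under 1 CPM (Myh6, Mybpc3, Myl2, Myl3, Csrp3, Tcap, Nppa, Nppb, Pln and Nkx2-5) had 33, 145, 44 and 266 reads in wild type replicates 1 to 4 and 2761, 268 and 1202 reads in knockout replicates 3, 4 and 5. Knockout replicate 4, with 5.91 CPM, was therefore no higher than wild type replicate 4, with 6.12 CPM, in the sum, although Myh6 and Nppa were higher in the former. Myh6 made up 45.4% of these reads in knockout replicate 3 (exact 95% interval 43.5 to 47.3%), 36.9% in replicate 4 (31.2 to 43.0%) and 33.3% in replicate 5 (30.6 to 36.0%), and 12.7% in the 4 wild-type libraries pooled. The wild-type libraries were not alike in this share, at 27.3% (13.3 to 45.5%), 6.21%, 22.7% and 12.8% in replicates 1 to 4, and replicate 4 gave 266 of the 488 pooled reads. Myl2 made up 2.97% in knockout replicate 3 (2.37 to 3.67%), 9.33% in replicate 4 (6.13 to 13.5%) and 18.3% in replicate 5 (16.2 to 20.6%), and 17.4% in pooled wild type. Most of the wild-type reads of Myl2 came from replicate 4, where it took 28.2%. The shares of Myh6 and Myl2 thus differed between knockout replicates 3 and 5 beyond counting error.

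**Figure D3:**
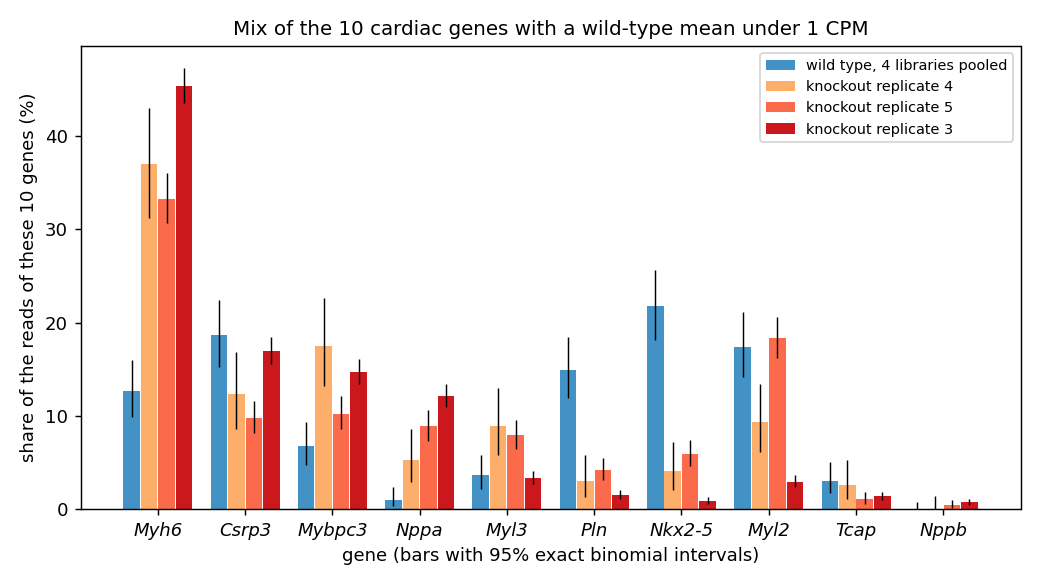
Share of each gene among the reads of the 10 members with a wild-type mean under 1 CPM, in pooled wild type and in each knockout library, as bars from 0 with exact 95% binomial intervals. Myh6 leads in all 3 knockout libraries, and Myl2 takes 18.3% in knockout replicate 5 but 2.97% in replicate 3.

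Other genes of heart muscle were taken from a list of 61 outside the members, also chosen with earlier results of these data known. Its calls and changes therefore describe the list and support nothing. Of the 52 tested, 5 were higher in knockout and 0 lower, where 1.59% and 3.43% of all tested genes were. The 5 were Gja1, a widely used connexin, Tbx3, a T-box factor of the conduction system, Fhod3, a formin of the sarcomere, Sh3bgr and Myzap, a junction protein. The median log2 fold change of the list was 0.44, against 0.01 over all tested genes. Sh3bgr had 5.74, 2.78 and 3.79 CPM in knockout replicates 3, 4 and 5, and wild type lay between 0.958 and 2.27 CPM. Gja1 and Tbx3 had their highest level in knockout replicate 4, at 134 and 34.1 CPM, unlike Myh6. Leaving out wild type replicate 3 or wild type replicate 4 left 0 called (15 at an unadjusted p under 0.05 in each), and leaving out wild type replicate 1 or knockout replicate 5 left 1. Without knockout replicate 3 there were 2, without knockout replicate 4 there were 3, and without wild type replicate 2 there were 9. Over all genes, the fits without 1 library called 24 to 418 higher. DESeq2 called 10, and 617 higher over all genes. The fit with the replicate block called 14, and 852 higher over all genes. Knockout replicate 3 was at least 4 times the wild-type mean for 11 of the 61, where 0.376% of tested genes were. The most abundant of these were Shox2, a homeobox gene of the sinus venosus, with 7.71, 1.5 and 2.39 CPM in knockout replicates 3, 4 and 5 and 0.793 to 1.24 CPM in wild type, and Hspb7, a small heat shock protein of muscle, with 7.47, 1.32 and 2.51 CPM and 1.18 to 1.70 CPM. Smpx, a small muscle protein, had 5.38, 0.573 and 2.25 CPM in knockout and 0.383 to 1.15 CPM in wild type. Myoz2, Cox6a2, Trdn, Mybphl and Xirp1 followed with 1.48 to 2.54 CPM in knockout replicate 3. Of the 11, Mybphl, Kcne1, Lmod2 and Irx4 had too few reads to be tested. The share of 0.376% covers tested genes only and so leaves out such genes.

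Genes outside the members were also ranked by how near their profile over the 7 libraries came to that of the sum of the 10 scarce members, as the root mean square difference of centred log2(CPM + 0.05). Among 11463 genes with at least 3 CPM in knockout replicate 3, the median distance was 2.13. That limit uses the library in which the summed profile is highest, and it left out scarcer genes such as Mybphl. The ranking is therefore a description only. The nearest were Smpx at 1.27, Casq1 at 1.30, Shox2 at 1.30, Eif4a-ps4 at 1.33, Ppp1r14c at 1.37, Rprm at 1.401, Pgam2 at 1.44, Apobec2 at 1.47, Ntrk2 at 1.49, Hspb7 at 1.502, Rps18-ps3 at 1.52 and Sh3bgr at 1.53. Casq1, calsequestrin of skeletal muscle, had 4.84, 0.640 and 1.08 CPM in knockout replicates 3, 4 and 5 and 0.440 to 0.874 CPM in wild type. Ppp1r14c, a phosphatase inhibitor, had 9.89, 1.57 and 2.37 CPM and 0.897 to 1.29 CPM in wild type. A near profile did not require a large step between knockout libraries. Rprm had 4.59, 4.23 and 5.64 CPM in knockout replicates 3, 4 and 5 and 0.745 to 2.60 CPM in wild type. Ntrk2 had 8.46, 7.28 and 8.35 CPM in knockout and 1.34 to 3.95 CPM in wild type, so both were nearly level within knockout. Reads of the pseudogenes Eif4a-ps4 and Rps18-ps3 may also come from their parent genes. The distance of members to this profile ran from 0.51 for Myl3, itself part of the sum, to 2.22 for Casq2. Members were not filtered by level, and Myl3, at 2.78 CPM in knockout replicate 3, would not have passed, so the 2 sets of distances are not alike.

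Chamber lists include members, whose values make up much of their sums. The 11 atrial genes had 273, 122 and 134 CPM in knockout replicates 3, 4 and 5, and wild type ran from 82.8 to 111 CPM. The 7 ventricular genes had 22.0, 16.9 and 32.9 CPM, highest in replicate 5, and wild type ran from 8.73 to 15.9 CPM. Of the ventricular genes outside the members, Hey2 had 9.82, 8.29 and 7.50 CPM in knockout replicates 3, 4 and 5, highest in replicate 3. Hand1, with 2.81, 6.18 and 7.81 CPM, and Irx4, with 0.151, 0.221 and 0.570 CPM, were highest in replicate 5. The 5 genes of the sinus venosus and node had 76.1, 72.8 and 77.9 CPM in sum, nearly level, and wild type ran from 50.7 to 65.7 CPM. The genes in this sum did not move together. Within knockout, Shox2, Hcn4 and Tbx18 were highest in replicate 3, Tbx3 in replicate 4 and Isl1 in replicate 5. Hcn4 had 8.43, 4.72 and 4.42 CPM and Tbx3 24.7, 34.1 and 32.2 CPM in knockout replicates 3, 4 and 5. Among the atrial genes outside the members, Nr2f1 had 33.4, 42.5 and 35.2 CPM and Bmp10 7.56, 9.92 and 7.47 CPM in knockout replicates 3, 4 and 5, both highest in replicate 4. Nr2f1 and Bmp10 were named after their values were seen. The rest, Kcnj5, Kcnj3, Mybphl and Sln, were highest within knockout in replicate 3. Kcnj5 had 12.4, 6.79 and 6.30 CPM and Kcnj3 2.06, 0.618 and 0.770 CPM in knockout replicates 3, 4 and 5. Mybphl had 1.63, 0.243 and 0.228 CPM and Sln 1.06, 0.287 and 0.770 CPM.

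Lists for other tissues were summed in the same way. The 28 skeletal muscle genes summed to 110, 234, 125 and 156 CPM in wild type replicates 1 to 4 and 183, 116 and 169 CPM in knockout replicates 3, 4 and 5, so their highest library was wild type replicate 2, and 9 of the 28 had the order of Myh6 within knockout, against 25.8% of all tested genes. Myog, the skeletal muscle regulator, named after its values were seen, had 17.8 CPM in wild type replicate 2 and 13.5, 8.76 and 13.4 CPM in knockout replicates 3, 4 and 5. Wild type replicate 2 was also the highest wild-type library for 18 of the 32 members, where 30.1% of tested genes had their highest wild-type value. These included Actc1, Ttn, Actn2, Tnnc1, Smyd1 and Myh7, named above as also used by embryonic skeletal muscle. The others were Myl4, Myl7, Csrp3, Nebl, Ldb3, Nppa, Pln, Ryr2, Casq2, Hrc, Tbx5 and Tbx20. The naming above is not a full list, so these others are not thereby restricted to heart. The part of skeletal muscle reads in any of the 18 was not tested. Genes of endocardium and valve summed to 531 CPM in knockout replicate 3, their highest library, with 360 and 438 CPM in replicates 4 and 5 and 281 to 457 CPM in wild type. Genes shared by mesothelium and epicardium were lowest in knockout replicate 3, at 337 CPM, against 383 to 553 CPM in wild type. Neural and adrenal genes were highest in wild type replicate 2, at 77.7 CPM, and had 8.74 CPM in knockout replicate 3. Genes of lung, gut and pancreas had their lowest sum in knockout replicate 3, at 10.1 CPM, with 15.1 to 29.1 CPM in wild type. Smooth muscle genes summed to 303 to 347 CPM in knockout and 235 to 321 CPM in wild type. Erythroid genes summed to 2964 to 5696 CPM in wild type and 1352 to 2116 CPM in knockout. The part of these tissues in the member values was not tested.

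**Figure D4:**
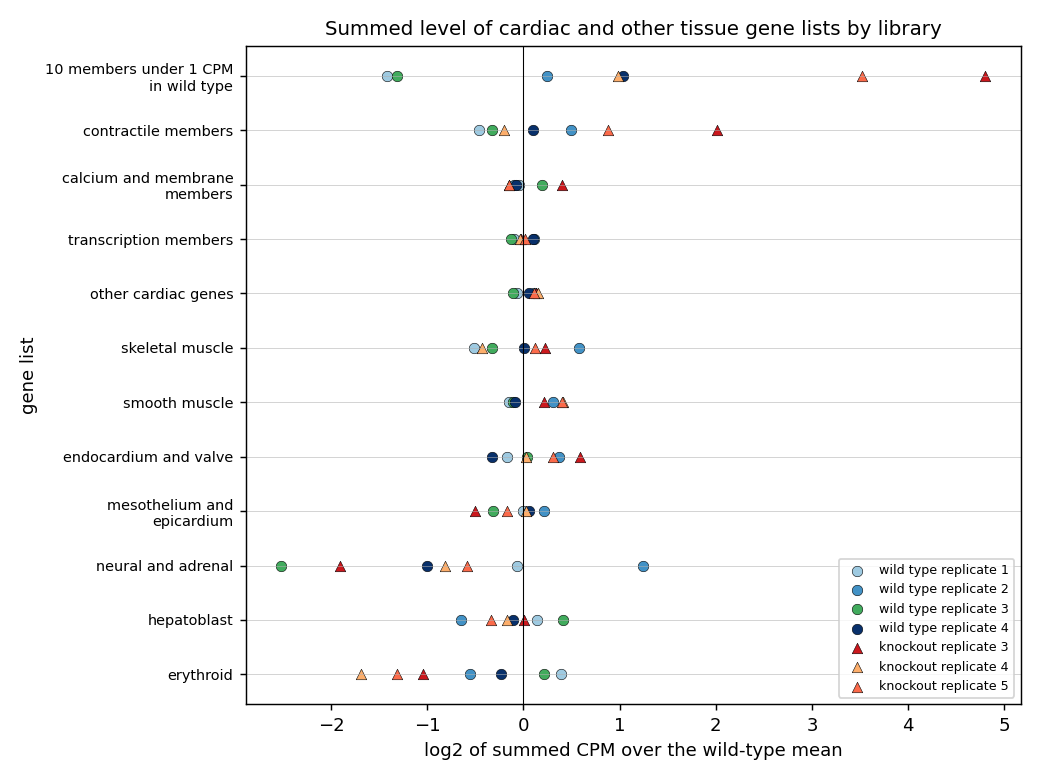
Summed CPM of each gene list in each library over its wild-type mean, on a log2 scale, wild type as circles and knockout as triangles. The 10 scarce members run from 1.12 CPM in wild type replicate 1 to 83.5 CPM in knockout replicate 3, while skeletal muscle and neural genes are highest in wild type replicate 2.

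Members also differed within wild type. The 19 contractile genes summed to 95.5, 186, 105 and 141 CPM in wild type replicates 1 to 4 and to 530, 115 and 242 CPM in knockout replicates 3, 4 and 5, so knockout replicate 4 lay inside the wild-type range for this sum. The 7 calcium and membrane genes summed to 255 to 312 CPM in wild type and 245 to 360 CPM in knockout, most of it from Atp2a2. The 4 transcription factors summed to 124 to 146 CPM in wild type and 132 to 137 CPM in knockout. In the authors' deposited table, 25 members had a log2 fold change, from -0.41 for Casq2 to 2.53 for Ankrd1. Myh6, Mybpc3, Csrp3, Tcap, Ldb3, Nppa and Nppb were not in that table, so it gives no change for them. In the authors' deposited table the adjusted p was under 0.05 for Myl4, Tnni3, Nebl, Ankrd1, Gja5 and Tbx5, and it was 0.0634 for Myl3.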

How the data were processed

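Messenger RNA of 7 fetal liver libraries was sequenced from TruSeq stranded libraries, per the labels. The submitters' processing notes name cutadapt 1.4.2, TopHat2, HTSeq, DESeq2, DESeq and build mm10. The deposited count files give raw reads per gene, with 5 HTSeq summary lines that were left out. In the authors' deposited table the signal is their mean level over samples, the change a log2 fold change with its standard error, the test score a Wald statistic, and the p-value unadjusted and adjusted. Names came from that table or, by identifier, from GENCODE M21. Coordinates and exon lengths came from M21.

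Counts were fitted in R 4.3.3 with edgeR 4.0.16 (filterByExpr, TMM, quasi-likelihood, group as the only term, all 7 libraries), and genes were called at an adjusted p under 0.05. The fit was tested on simulated data. CPM are TMM scaled. Intervals on ratios and shares are exact Clopper-Pearson intervals (scipy 1.17.1). Alternatives included DESeq2 1.42.0 and limma 3.58.1. The members, the other lists and the TATAAA motif were chosen with earlier results of these data known. Named genes were all members, Pcbp2, the 8 most abundant other cardiac genes in knockout replicate 3 at 4 times the wild-type mean or more, the 12 nearest profiles without predicted or clone names, and up to 4 leading genes of other lists.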

Additional observations from a re-analysis of the deposited data

Results flagged for a closer look

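In 3 of the 29 members with at least 10 reads in some wild-type library, 1 wild-type library stood far from the other 3 by Dixon's gap test at the 95% level, which chance alone meets in about 1 in 20 groups. Myh6 had 0.782 CPM in wild type replicate 4 against 0.220 to 0.305 CPM in the others. Myl2 had 1.72 CPM in wild type replicate 4 against 0 to 0.146 CPM in the others. Tnnt2 had 5.83 CPM in wild type replicate 3, the low end, against 8.29 to 8.53 CPM in the others.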

How the results depend on the processing

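Members called higher numbered 8, with 13 under no filter on low counts, 0 with at least 5 CPM in 3 libraries (5 at an unadjusted p under 0.05), 3 with limma-voom and 15 with the replicate block. Without 1 library they ranged from 4 to 11, and members called lower from 0 to 1. Other cardiac genes called higher numbered 5, with 9 under no filter, 10 with DESeq2 and 14 with the replicate block, which also called 1 lower, and 0 to 9 without 1 library. Over all genes, 258 were higher and 556 lower. Total-count scaling gave 651 higher, DESeq2 617 higher and 1057 lower, the replicate block 852 higher and 1204 lower, and leaving out 1 library 24 to 418 higher and 116 to 753 lower. With the replicate block the spread rests on replicate numbers 3 and 4 only, so its counts are not directly comparable with the others. Less the wild-type mean, the median ratios were 3.30 for knockout replicate 3 over 5 and 12.7 for 3 over 4. Equal replicate numbers occur in both groups for 3 and 4 only, the labels do not say that they pair samples, and the deviations of equal numbers correlated at 0.32 and 0.26. Deviations of unequal numbers correlated from -0.33 to 0.15. The reason for this difference was not tested, and the main fit holds no term for the replicate number. Members with few reads, such as Nppb and Tcap, are limited by depth.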
